A study of Mus musculus with 22 samples.

Results

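Skiv2l (locus XLOC_026029), Ttc37 (XLOC_015235) and Hbs1l (XLOC_004496) encode proteins that act with the SKI complex, and they were chosen by name, as 3 of the 66494 loci in each deposited table. The data came from Purkinje cells (PCs) of the cerebellum of C57BL/6 mice. Mutants (labelled CC) carried 2 floxed copies of Tsc1, which is removed by Cre under the L7 (Pcp2) promoter, and controls (labelled WW) carried Tsc1 +/+. The 10 libraries of sorted PCs (5 mutant, 5 control) were made from total RNA of live GFP-positive cells taken from animals in which L7 also drives GFP. The study describes the control animals of this sort once with L7Cre and once without it, so that Cre itself may differ between the groups. The 12 TRAP (translating ribosome affinity purification) libraries hold RNA bound to RPL10A-EGFP, a tagged ribosomal protein switched on by Cre, and were pulled down from the whole cerebellum of single animals. They comprise 3 mutant and 3 control libraries without rapamycin and 3 of each genotype with rapamycin, an inhibitor of mTOR, which TSC1 restrains. The study's methods name a pair of ages for the sorted animals, but no label ties a library to either, and whether age differed between groups or submissions was not tested. The labels also give no dose or schedule of rapamycin, and they do not state that the libraries of a group came from separate animals throughout, so that p-values describe the spread between these libraries.

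The SKI complex feeds cytoplasmic mRNA, 3′ end leading, into the RNA exosome, the nuclease that degrades RNA from its 3′ end. SKIV2L is its RNA helicase, TTC37 is the tetratricopeptide scaffold that holds the subunits together, and WDR61 is a WD40 adaptor that also belongs to the PAF1 transcription complex. HBS1L is a GTPase that works with Pelota to split stalled ribosomes, and a short splice form of the same gene links the SKI complex to the exosome. Wdr61, the remaining SKI subunit, was read beside the 3 members.

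In the GENCODE annotation of GRCm38, Skiv2l lies at chr17:34839228-34850210 on the minus strand, Ttc37 at chr13:76098734-76190316 on the plus strand, Hbs1l at chr10:21295979-21368898 on the plus strand, and Wdr61 at chr9:54714735-54734519 on the minus strand. All 4 are protein-coding. The 3′ end of Skiv2l overlaps the end of Dxo on the other strand, Wdr61 overlaps the end of Dnaja4, and the antisense gene 4930455C13Rik lies within Hbs1l. No source used here states that reads were counted by strand, and reads from these overlaps could then not be assigned to one gene. A pseudogene, Skiv2l-ps1, could also share reads with Skiv2l.

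Both forms of Hbs1l were counted as one locus, which matters because only the short one acts with the SKI complex. The forms share 4 exons and 418 coding bases and then part. The long form goes on through 18 exons to 2037 coding bases, whereas the short form ends in its exon 5, at chr10:21309099-21311209, with 1836 coding bases. The GENCODE transcripts read across the end of exon 4 (lower case) into the start of the exon 5 of each form (capitals), which is where a read would tell the forms apart.
Hbs1l long form: agccttcaaaagTTATATCTCGGT
Hbs1l short form: agccttcaaaagGAGTCTTATTTT
No value in either table separates these junctions, and every Hbs1l value is the sum over both forms.

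Start sites of transcripts that mTOR controls through translation often begin with a 5′ terminal oligopyrimidine (TOP) run, and the RefSeq starts (GRCm38.p6) of the 2 members that had an entry were read for one. Each sequence gives 10 bases before the start in lower case and 15 from the start in capitals.
Hbs1l start, chr10:21295969-21295993, plus strand: cgccaagtgcGCAGGTATGACGTCG
Ttc37 start, chr13:76098724-76098748, plus strand: tttcgagctaATGATAGCTCTGCCA
Hbs1l started with G and Ttc37 with A. Neither window had a C at the start followed by at least 4 pyrimidines, a pattern read on the transcribed strand only, and 823 of 32851 RefSeq starts (2.51%) had it.

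Sorted libraries held 43.3 to 86.3 M estimated fragments and TRAP libraries 2.47 to 6.38 M. The 10 highest loci took 6.10% to 9.82% of a sorted library and 40.5% to 72.6% of a TRAP library. Values are estimated fragments divided by one size factor per library, scaled separately in the 2 tables, so that levels are not compared between them. The submission numbers in the labels split the sorted libraries unevenly. MS2723 holds mutants 61, 74 and 103 only, MS2872 holds controls 45, 48 and 144b only, and MS3005 holds mutants 167 and 191 with controls 144a and 176. Controls 144a and 144b carry one animal number. The summed level of 4 Purkinje markers (Pcp2, Calb1, Car8, Itpr1) was 12187 to 66326 in the 3 mutants of MS2723, 206173 to 230832 in the libraries of MS3005 other than control 144a (375369), and 302980 to 420511 in the 3 controls of MS2872. The summed level of 6 markers of other cells (Gfap, Apoe, Csf1r, Cd68, Flt1, Opalin) was 223297 to 285968 in mutants and 120173 to 305063 in controls, with none of the 6 at 0. RNA of glial and endothelial markers was thus present in the sorted PCs. Marker loci could be taken only from the study's supplementary files, which mostly list changed genes. Fewer PCs and less RNA per PC cannot be told apart in these bulk samples.

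All 4 genes were well measured in sorted PCs, and scaled to transcript length the helicase and Hbs1l stood well above the scaffold. In controls the value per kb of transcript was 1446 ± 59.3 for Hbs1l, 1222 ± 179 for Skiv2l, 850 ± 79.0 for Wdr61 and 271 ± 105 for Ttc37 (mean ± SD, n = 5). Mutants gave the same order, with 1485 ± 189 for Hbs1l, 1441 ± 162.1 for Skiv2l, 947 ± 131 for Wdr61 and 261 ± 22.8 for Ttc37 (mean ± SD, n = 5). Hbs1l and Skiv2l overlapped in both genotypes and their order is not resolved. With the transcript lengths used, Skiv2l lay above Wdr61, and Wdr61 above Ttc37, in all 5 libraries of each genotype without overlap. Per kb, Skiv2l exceeded Ttc37 by 4.47- to 6.55-fold in mutants and by 2.696- to 7.28-fold in controls. The lengths are those of one GENCODE transcript per gene (3951 bases for Skiv2l, 5381 for Ttc37, 2793 for Hbs1l and 3372 for Wdr61), not of the authors' own assembly. Of the 3372 bases taken for Wdr61, 837 are coding. A shorter Wdr61 transcript would raise its value per kb, so the place of Wdr61 in the order depends on this choice. No other transcript was tried.

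**Figure D1:**
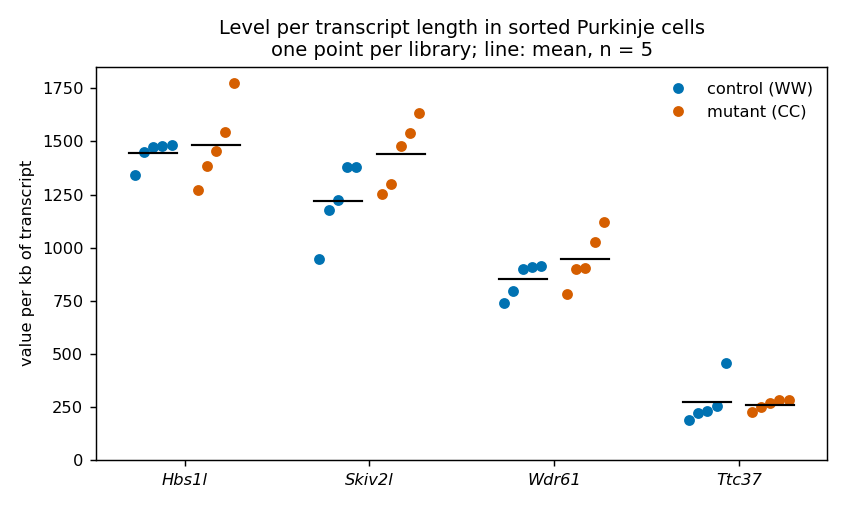
Deposited value per kb of GENCODE transcript (vertical axis) of Hbs1l, Skiv2l, Wdr61 and Ttc37 in sorted PCs. Each point is a library (5 controls in blue, 5 mutants in orange, sorted by value) and each line a group mean. Hbs1l and Skiv2l overlap, and Ttc37 (means of 271 and 261) lies below the other genes in both genotypes.

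The comparison of sorted mutant with control PCs asks whether loss of Tsc1 changed the RNA level of these genes. None of the 4 passed the study's thresholds (a fold change over 2 with an unadjusted p under 0.01), which 242 of the 16455 loci tested passed (1.47%), and no locus had an adjusted p under 0.05 in limma, with 1861 at an unadjusted p under 0.05. Skiv2l, the helicase, had values of 6463, 4951, 5127, 6086 and 5841 in mutants 103, 167, 191, 61 and 74. In controls 144a, 144b, 176, 45 and 48 Skiv2l was at 5455, 5455, 4646, 4840 and 3740.5. The highest 3 values were those of the mutants of MS2723, and the other 2 mutants lay within the range of the controls. The difference (mutant minus control, log2) was 0.24 ± 0.16 (SE), with a 95% interval from -0.11 to 0.60 and an adjusted p of 0.535 in limma over all loci.

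Within MS3005, the submission with both genotypes, the Skiv2l difference was 0.0012 (SE 0.24, n = 2 and 2). Skiv2l averaged 12.58 on the log2 scale in the mutants of MS2723, 12.30 in both genotypes of MS3005 and 12.18 in the controls of MS2872. The pooled difference in Skiv2l thus rests on libraries whose submission cannot be told apart from genotype. The mutants in which Skiv2l was highest were also those with the lowest Purkinje marker sum. The part of PC content in the Skiv2l level was not tested.

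Ttc37, the scaffold, was at 1343, 1509, 1221, 1509 and 1433 in the mutants, in the same order of libraries. In the controls Ttc37 was at 1021, 1196, 1379, 2445 and 1241. One control, library 45, stood far above the rest, and the mutants lay within the range of the controls. The difference was 0.01 ± 0.23 (95% interval -0.50 to 0.53, limma adjusted p 0.981). Without control 45 it was 0.22 and without control 144a it was -0.10, so that its sign depended on single libraries. Control 45 also had the lowest sum of markers of other cells (120173) and the highest Purkinje sum (420511), and the part of either in its Ttc37 level was not tested.

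Hbs1l was at 3553, 4953, 4307, 4060 and 3868 in the mutants. The controls spanned a narrow range, with values of 3750, 4144, 4129, 4054 and 4121. The mutants lay on both sides of the controls. The difference was 0.03 ± 0.14 (95% interval -0.27 to 0.33, limma adjusted p 0.930), and 0.23 (SE 0.24) within MS3005. Wdr61, the adaptor, was at 3055, 2628, 3467, 3777 and 3031 in mutants. Its controls were at 2690, 3057, 3079, 3025 and 2485. The groups overlapped, and Wdr61 differed by 0.15 ± 0.15 (95% interval -0.18 to 0.48, limma adjusted p 0.662), against 0.07 (SE 0.27) within MS3005. The intervals of Skiv2l, Hbs1l, Ttc37 and Wdr61 leave out a doubling or a halving of any of these RNAs in the pooled comparison, but leave room for smaller changes. That comparison takes no account of submission. With submission as a term the SE was larger for each gene, at 0.24 for Skiv2l, 0.20 for Hbs1l, 0.37 for Ttc37 and 0.25 for Wdr61. The pooled bound is thus not one on the effect of Tsc1 loss alone.

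**Figure D2:**
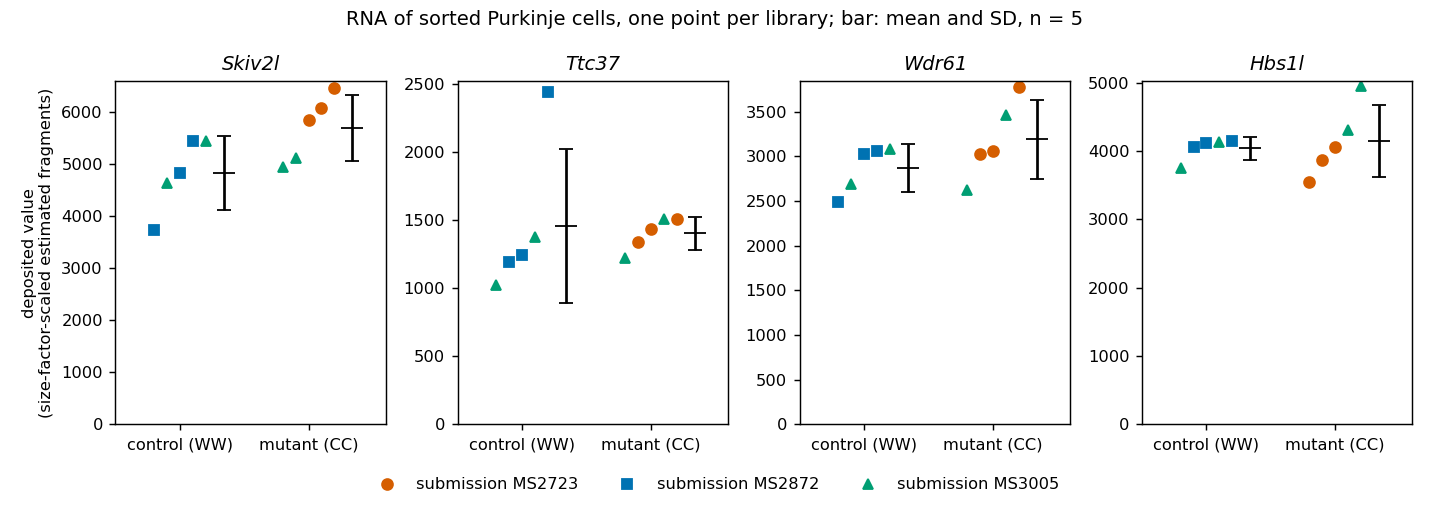
Deposited values (vertical axis, from 0) of Skiv2l, Ttc37, Wdr61 and Hbs1l in sorted PCs, one point per library, sorted by value, with symbols for the submission. Bars are the mean and SD of 5 libraries. The mutants of MS2723 hold the 3 highest Skiv2l values (5841 to 6463) and control 45 the highest Ttc37 value (2445).

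Ratios between members were taken within a library, on the log2(value + 1) scale, where the size factor cancels for high values but not for low ones. The log2 ratio of Skiv2l to Ttc37 was 2.02 ± 0.20 in mutants and 1.79 ± 0.56 in controls (mean ± SD, n = 5, exact two-sided permutation p = 0.437), and the difference of 0.23 became 0.030 without control 45. Skiv2l to Hbs1l was 0.46 ± 0.34 and 0.24 ± 0.26 (n = 5, exact permutation p = 0.278), and within MS3005 its difference was -0.23 against 0.21 over all libraries. That difference was 0.11 without mutant 103 and 0.33 without mutant 167. Ttc37 to Hbs1l was -1.56 ± 0.19 and -1.54 ± 0.47 (n = 5, exact permutation p = 0.976). Adjusted over the 6 ratio tests in sorted PCs and TRAP, the smallest p was 0.60. Since controls 144a and 144b carry one animal number, the 5 control libraries stand for 4 animal numbers. With these 2 libraries averaged, the exact permutation p was 0.206 for Skiv2l to Ttc37, 0.222 for Skiv2l to Hbs1l and 0.833 for Ttc37 to Hbs1l.

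The members did not follow one another across the 10 sorted libraries, which is a description over libraries that share sort, depth and submission. Pearson's r was -0.05 for Skiv2l with Ttc37, -0.44 for Skiv2l with Hbs1l and 0.16 for Ttc37 with Hbs1l, while Skiv2l and Wdr61 had r = 0.57. Among 1212 loci that the study's supplementary files name, mostly as changed genes, the patterns most like Skiv2l were those of Gm6297 (r = 0.92), Dcp1a, a decapping cofactor (r = 0.92), and G630022F23Rik (r = 0.92). Those most like Ttc37 were Klhdc2 (r = 0.88), a substrate receptor of a ubiquitin ligase, Cstf2 (r = 0.82), a subunit of the 3′ end cleavage machinery, and Ccne2 (r = 0.81), a cyclin. Those most like Hbs1l were Pik3cb (r = 0.83), a PI3 kinase subunit, AC166344.3 (r = 0.81) and 1700042G07Rik (r = 0.80). For each member these are the 3 highest of 1212 values of r over only 10 libraries. Such a choice gives high r by itself, and how high it runs between unrelated loci was not tested. No shared function is read from these names. Across the 12 TRAP libraries r between the 4 genes ran from -0.71 for Skiv2l with Wdr61 to 0.70 for Hbs1l with Wdr61. Leaving out control library 1 with rapamycin, in which Wdr61 had 1 fragment, moved r to -0.16 for Skiv2l with Wdr61 and to 0.50 for Hbs1l with Wdr61, an alternative chosen after seeing the data. Without that library r also went from -0.50 to -0.01 for Skiv2l with Hbs1l, from 0.23 to -0.35 for Skiv2l with Ttc37 and from -0.21 to 0.21 for Ttc37 with Wdr61. In TRAP the 3 loci nearest Skiv2l had r between -0.27 and 0.13 with it, whereas those nearest Hbs1l had 0.50 to 0.71. With Ttc37, r in TRAP was -0.52 for Klhdc2, 0.54 for Cstf2 and 0.28 for Ccne2.

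In TRAP every member stood on few fragments. Multiplied back, Skiv2l had 11 to 96 fragments in a library, Ttc37 3 to 46 and Hbs1l 0 to 70, and 35 of these 36 values were whole numbers of fragments within 0.02. Over the 3 control libraries without rapamycin Skiv2l summed to 76 fragments (95% Poisson interval 59.9 to 95.1), Ttc37 to 52 (38.8 to 68.2) and Hbs1l to 76 (59.9 to 95.1). Such intervals cover counting error only. In sorted PCs the same genes had from 986 to 6962 fragments per library. Mutant TRAP library 3 stood apart in its make-up, with its 10 highest loci at 40.5% of its total against 58.3% to 72.6% in the other 11.

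The comparison of TRAP from mutants and controls without rapamycin asks whether the ribosome-bound RNA of these genes differed. Skiv2l was at 21.6, 19.6 and 23.1 in mutants 1 to 3 (11, 13 and 76 fragments). In controls 1 to 3 it was at 18.7, 17.6 and 14.5 (22, 28 and 26 fragments). The mutants all lay above the controls, by a small margin, as they did for 8.55% of the 9658 loci tested. On the deposited scale the difference was 0.33 ± 0.32 (95% interval -0.43 to 1.08, limma adjusted p 0.796), a size that fragment counts of 11 and 13 do not resolve. The sum of the 6 markers of other cells was also higher in mutant TRAP, at 385 to 516 against 55.1 to 158 in controls, and each of the 6 was higher in every mutant than in every control. The microglial Cd68 was at 2.73 to 7.85 in mutants and at 0 in 2 of 3 controls, and the endothelial Flt1 was at 1.96 to 7.53 in mutants and at 0 in all 3 controls. The Purkinje sum was 6948 to 7435 in mutant and 8236 to 9570.5 in control TRAP. Of its markers only Itpr1 lay apart, at 1426 to 1503 in mutants and 2563 to 3328 in controls, while Pcp2, Calb1 and Car8 overlapped. The part of these cells in the Skiv2l difference was not tested.

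Hbs1l had the largest mean difference of the 3 members in TRAP and the widest spread. It was at 45.1, 31.6 and 21.2 in mutants 1 to 3 (23, 21 and 70 fragments). In controls 1 to 3 it was at 2.55, 23.2 and 20.04 (3, 37 and 36 fragments). Control 1 was far below the rest, and the groups overlapped because control 2 exceeded mutant 3. The difference was 1.40 ± 0.77 (95% interval -0.41 to 3.21, unadjusted p 0.110 and adjusted p 0.684 in limma), and without control 1 it was 0.51. With a pseudocount of 10 in place of 1 the Hbs1l difference was 0.84, with an adjusted p of 0.503. The size of the Hbs1l difference thus depended on 1 library in which it had 3 fragments.

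Ttc37 was at 7.85, 13.6 and 13.96 in mutants and at 8.51, 16.3 and 8.91 in controls. The groups overlapped, with a difference of 0.08 ± 0.41 (95% interval -0.90 to 1.06, limma adjusted p 0.976). Wdr61 was at 21.6, 21.1 and 16.7 in mutants and at 14.5, 17.6 and 7.24 in controls. Wdr61 differed by 0.63 ± 0.41 (95% interval -0.34 to 1.61, limma adjusted p 0.727), and mutant 3 lay below control 2. Without control 3 the Wdr61 difference was 0.29. None of the 4 genes passed the thresholds, which 1.96% of the loci tested passed.

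Ratios in TRAP were as wide as the values behind them. The log2 ratio of Ttc37 to Hbs1l was -1.37 ± 0.92 in mutants and -0.05 ± 1.31 in controls (mean ± SD, n = 3, exact two-sided permutation p = 0.20). That of Skiv2l to Hbs1l was -0.53 ± 0.58 and 0.55 ± 1.67 (n = 3, exact permutation p = 0.40). Skiv2l to Ttc37 was 0.85 ± 0.45 and 0.60 ± 0.48 (n = 3, exact permutation p = 0.50). Without control 1 the genotype difference in the log2 ratio (mutant minus control) went from -1.08 to -0.11 for Skiv2l to Hbs1l and from -1.32 to -0.59 for Ttc37 to Hbs1l. With a pseudocount of 10 these differences were -0.61 and -0.80. With 3 libraries against 3, this test cannot go below 0.1.

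**Figure D3:**
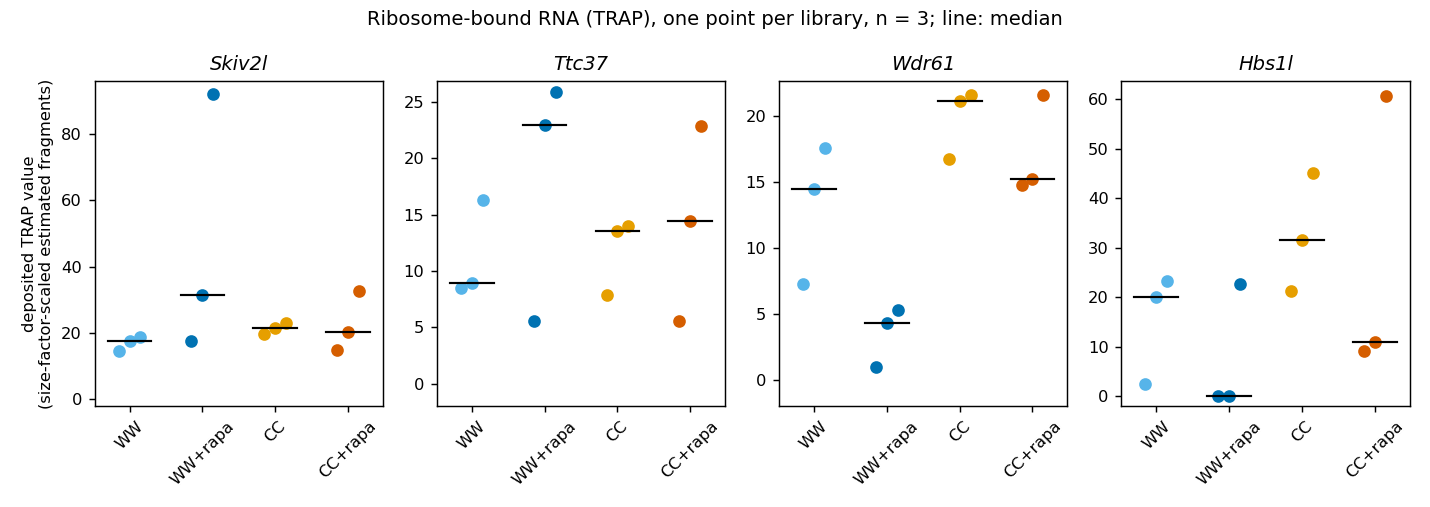
Deposited TRAP values (vertical axis, linear) of Skiv2l, Ttc37, Wdr61 and Hbs1l in controls (WW) and mutants (CC) without and with rapamycin (rapa), one point per library, sorted by value. Lines are medians of 3 libraries. Hbs1l is listed at 0 in 2 control libraries with rapamycin, Skiv2l reaches 91.9 in one of them, and Wdr61 is lowest in that group.

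Translation efficiency is the level of bound RNA relative to RNA in the cell, and its change (ΔTE) is the genotype difference in TRAP minus that in sorted PCs on the log2(value + 1) scale. ΔTE was 0.08 ± 0.28 (SE) for Skiv2l, 0.07 ± 0.42 for Ttc37, 0.48 ± 0.35 for Wdr61 and 1.37 ± 0.66 for Hbs1l. The median over all loci tested was 0.19, with 60.4% above 0. Skiv2l lay at the 43.7th percentile and Ttc37 at the 42.9th. The limma adjusted p was 0.908 for Skiv2l, 0.958 for Ttc37, 0.538 for Wdr61 and 0.349 for Hbs1l. Hbs1l had a 95% interval of -0.02 to 2.77 and lay at the 90.9th percentile of the 9374 loci tested. This fit takes 1 variance per locus for sorted PCs and TRAP together, though TRAP values of Hbs1l spread far more. From the spread within each group the SE was 0.95 for Hbs1l, 0.43 for Ttc37, 0.39 for Wdr61 and 0.18 for Skiv2l. The limma interval of Hbs1l is thus too narrow. The study's methods derive a Z-score from 100 recalculations of ΔTE with a value left out of each dataset. This was read here as ΔTE over the SD of recalculations that each leave out 1 library of each group. So read, the Z-score was 0.77 for Skiv2l, 0.24 for Ttc37, 1.70 for Wdr61 and 1.98 for Hbs1l. None reached the study's threshold of 4, which 851 loci did (9.08%), and none passed the p and fold thresholds, which 4.38% of loci did. Without control TRAP library 1 the ΔTE of Hbs1l was 0.48, and without control TRAP library 3 that of Wdr61 was 0.14. Sorted PCs and TRAP came from different animals and tables, so ΔTE carries the spread of both. The part in ΔTE of the marker levels given above for sorted PCs and TRAP was not tested.

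Rapamycin was given to both genotypes, and the first question is what it did in controls. Skiv2l was at 91.9, 17.7 and 31.4 in control TRAP libraries 1 to 3 with rapamycin (96, 20 and 51 fragments), against 18.7, 17.6 and 14.5 without it. Library 1 was far above the rest and library 2 lay within the untreated range. The difference (rapamycin minus none) was 1.10 ± 0.73 (95% interval -0.64 to 2.85, limma adjusted p 0.858), and 0.46 without library 1 of the treated controls. Ttc37 was at 25.9, 22.98 and 5.54 with rapamycin, against 8.51, 16.3 and 8.91 without. Library 3 lay below all untreated controls and the other 2 above them, and the difference was 0.46 ± 0.75 (limma adjusted p 0.917), with 0.089 without treated control 1 and 1.11 without treated control 3.

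Hbs1l was listed at 0 in libraries 1 and 2 of the treated controls and was at 22.8 in library 3 (37 fragments). As a one-sided 95% limit, a count of 0 allows up to 3 fragments (3.69 with the two-sided 95% Poisson interval used for the other counts). Such 3 fragments would be a value of 2.87 in library 1 and 2.65 in library 2. Many other loci were also listed at 0 there. Of 6954 loci with a mean of at least 10 in untreated control TRAP, 23.2% were at 0 in library 1, 10.7% in library 2 and 6.93% in library 3 of the treated controls, against 0.144% to 4.67% in the 9 libraries of the other groups, and 319 (4.59%) were at 0 in both libraries 1 and 2. A 0 may be a failed estimate, so that Hbs1l is described by library. Hbs1l averaged 1.52 on the log2 scale in treated controls, below the filter of 2, and 3.61 in untreated ones. It was tested here only through its level in untreated controls. The fitted difference was -2.08 ± 1.45 (95% interval -5.54 to 1.37, limma adjusted p 0.862) with a pseudocount of 1 and -0.64 with 10, and it is no bound on a fold change. It was -1.32 without treated control 1. Without treated control 3 both treated libraries left were listed at 0. The -3.61 then fitted only restates the untreated mean on the log2(value + 1) scale and is not read as a change.

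Wdr61 was at 0.958, 5.30 and 4.31 in treated controls (1, 6 and 7 fragments), against 14.5, 17.6 and 7.24 in untreated ones (17, 28 and 13 fragments). The treated libraries all lay below the untreated ones, as for 7.18% of the 8682 loci tested. The difference in Wdr61 was -1.72 ± 0.70 (95% interval -3.40 to -0.05, unadjusted p 0.0453 and adjusted p 0.850 in limma). The median over all loci was itself -0.31 in this comparison, and after quantile normalization the Wdr61 difference was -0.92. The sum of the Purkinje markers was 6486 to 7799.6 in treated and 8236 to 9570.5 in untreated controls. Of these markers only Calb1 lay apart, at 748 to 1280 in treated and 1451 to 1775 in untreated controls, while Pcp2, Car8 and Itpr1 overlapped. The part of PC content in the Wdr61 difference was not tested. None of the 4 genes passed the thresholds here, where 1.05% of loci did.

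In mutants, Skiv2l was at 32.6, 14.8 and 20.3 with rapamycin and at 21.6, 19.6 and 23.1 without. The treated libraries lay on both sides of the untreated ones, and the difference was 0.01 ± 0.38 (95% interval -0.89 to 0.90, limma adjusted p 0.996). Ttc37 was at 14.5, 22.9 and 5.54 with rapamycin and at 7.85, 13.6 and 13.96 without, a difference of 0.11 ± 0.54 (limma adjusted p 0.964). Hbs1l was at 9.05, 60.6 and 10.9 with rapamycin (5, 45 and 6 fragments) and at 45.1, 31.6 and 21.2 without. Libraries 1 and 3 of the treated mutants were below every untreated mutant and library 2 was above them all. The Hbs1l difference was -0.73 ± 0.74 (limma adjusted p 0.771), and without library 2 it was -1.56 with an unadjusted p of 0.0089, past the thresholds, and an adjusted p of 0.476. Wdr61 was at 15.2, 21.6 and 14.8 with rapamycin and at 21.6, 21.1 and 16.7 without, a difference of -0.21 ± 0.32 (limma adjusted p 0.853). The Wdr61 difference was -0.37 without treated mutant 2 and -0.11 without treated mutant 3. With all libraries, none of the 4 genes passed the thresholds, which 1.75% of 9664 loci did. The sum of the 6 markers of other cells was 61.5 to 164 in treated and 385 to 516 in untreated mutants, without overlap, and its part in these differences was not tested.

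Between genotypes under rapamycin, Hbs1l differed by 2.76 ± 1.44 (mutant minus control, 95% interval -0.69 to 6.21, limma adjusted p 0.873), with all 3 mutants above the 2 controls listed at 0 and 1 mutant above control 3. Leaving out that control gave 4.28, past the thresholds, with a limma adjusted p of 0.147. Both controls left were then listed at 0, without spread, so no call was read from this fit. Hbs1l averaged 1.52 on the log2 scale in treated controls, below the filter of 2, and was tested only through its level in the mutants. As 2 controls are listed at 0, the size of the Hbs1l difference is set by the pseudocount, and it was 1.03 with a pseudocount of 10 and 1.37 after quantile normalization. Wdr61 was higher in all 3 treated mutants than in the 3 treated controls, as were 7.37% of the 8728 loci tested, and differed by 2.15 ± 0.65 (95% interval 0.60 to 3.70, unadjusted p 0.0139 and adjusted p 0.846 in limma). With a pseudocount of 10 the Wdr61 difference was 1.01, on 1, 6 and 7 fragments in the treated controls. The median over all loci was 0.32 in this comparison. Skiv2l differed by -0.77 ± 0.76 (adjusted p 0.875) and Ttc37 by -0.27 ± 0.82 (adjusted p 0.957), and both overlapped. The Skiv2l difference was -0.13 without treated control 1 and -1.29 without treated control 2. The thresholds were passed by 1.23% of loci and by none of the 4 genes. The comparisons under rapamycin share libraries with the others and are not independent of them.

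The test of whether rapamycin acted differently in the 2 genotypes used all 12 TRAP libraries. The interaction (mutant minus control effect, log2) was -1.10 ± 0.81 for Skiv2l, -0.35 ± 0.93 for Ttc37, 1.36 ± 1.75 for Hbs1l and 1.52 ± 0.75 for Wdr61. The limma adjusted p was 0.880 for Skiv2l, 0.964 for Ttc37, 0.930 for Hbs1l and 0.838 for Wdr61. The median interaction over the 9174 loci tested was 0.33, and 1.91% of them passed the thresholds. The Hbs1l interval ran from -2.50 to 5.22, wide enough to hold opposite effects of several-fold. With single libraries left out the interaction ran from -1.62 to -0.46 for Skiv2l and from 0.53 to 2.88 for Hbs1l. The 2.88 came without treated control 3, when both treated controls left were listed at 0. With a pseudocount of 10 the Hbs1l interaction was 0.195. That of Wdr61 was 0.41 after quantile normalization, 0.73 with equal totals, 0.62 with a pseudocount of 10 and 0.999 without treated control 1.

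**Figure D4:**
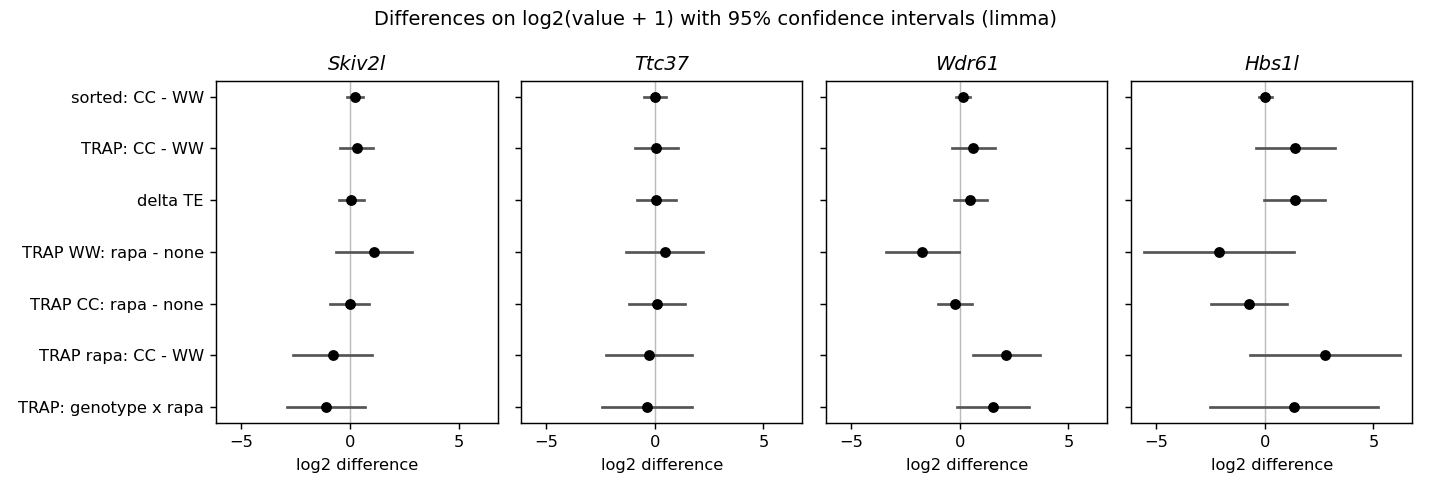
Differences on the log2(value + 1) scale (horizontal axis) with 95% intervals from limma for Skiv2l, Ttc37, Wdr61 and Hbs1l in the 7 comparisons (rows; CC mutant, WW control, rapa rapamycin). Intervals are narrow in sorted PCs, where Skiv2l is at 0.24, and wide in TRAP, where Hbs1l runs from -2.08 to 2.76 between comparisons.

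The RNAs of the exosome, the nuclease that the SKI complex serves, were read from the study's own list of 24 RNA decay loci. It holds the 3 members and Wdr61, 10 core and catalytic exosome subunits and 10 nuclear cofactors. As the study drew up this list with these samples at hand, its directions are not independent evidence. In sorted PCs 20 of the 24 had a mean difference above 0 and 4 below, with a median of 0.16 beside 0.03 over all loci, of which 52.6% lay above 0. Ttc37, one of the 20, was below 0 in 6 of 18 alternatives. Submission is partly tied to genotype in these libraries, and the Purkinje marker sum was lowest in the mutants of MS2723. The part of either in the directions of the list was not tested. Of the list, 0 of 24 passed the thresholds, beside 1.47% of all loci tested. An unadjusted p under 0.05 in limma was reached by 0 of 24, beside 11.3% of all loci. The 10 exosome subunits ranged from -0.25 to 0.26. Within the cofactors the difference was 0.39 for Skiv2l2, the nuclear relative of Skiv2l (adjusted p 0.450), and 1.12 for Zcchc7 (adjusted p 0.566).

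In TRAP without rapamycin, 10 of the 24 lay above 0 and 14 below, with a median of -0.16 beside 0.07 over all loci. Again none passed the thresholds, beside 1.96% of all loci tested. An unadjusted p under 0.05 in limma was reached by 2 of 24, beside 8.11% of all loci. Above 0 were 4 of the 4 SKI genes and Hbs1l (median 0.48), 4 of 10 exosome subunits (median -0.21) and 2 of 10 nuclear cofactors (median -0.19), beside 54.6% of all loci, and the contrast between these groups was not tested. Of the 4, Ttc37 was at 0.08, and below 0 with any of 4 of the 6 libraries left out. The exosome subunits ranged from -2.07 for Exosc2 (adjusted p 0.615) to 1.598 for Exosc1 (adjusted p 0.638). Under rapamycin 20 of the 24 were tested in controls and 22 in mutants. Their medians were -0.66 and -0.003, beside -0.31 and -0.04 over all loci. None passed the thresholds, beside 1.05% and 1.75% of all loci tested. An unadjusted p under 0.05 in limma was reached by 3 of 20 and 2 of 22, beside 5.30% and 8.31% of all loci.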

How the data were processed

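The labels name the SmartSeqv4 kit, and no source used here states whether strand was kept. The study's methods name reads of 75 bases from both fragment ends, trimming with Trimmomatic (0.39), mapping to GRCm38 with STAR (2.7.0f) and assembly with Cufflinks (2.2.1), where the versions are those of the submitters' processing notes. TRAP was quantified on the assembly of the sorted PCs. In the unit of the deposited tables, each value is a signal: the authors scaled Cufflinks' estimated counts of fragments by a size factor for each library. These are not read counts and were not tested as such. Estimated fragments are the value divided by the step between the lowest values of a library (precision: 95% Poisson intervals, counting error only).

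Log2(value + 1) was tested with limma 3.58.1 in R 4.3.3, two-sided, on all loci whose mean reached 5 in sorted PCs or 2 in TRAP, with Benjamini-Hochberg adjustment. Fold changes on this scale understate those of low genes. Past the thresholds means an unadjusted p under 0.01 and a fold above 2, after the study's methods. Each fit held the libraries of its own groups, and those of the interaction and ΔTE all the groups they need. The scripts were tested on simulated data.

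Groups came from the labels (CC and WW), with the genotypes from the study's usage. Locus names came from its supplementary files, which do not pair Tsc1 with a locus, so that the labels could not be checked on Tsc1. Genes named are the 3 members, Wdr61, for each member the 3 named loci with the highest r in sorted PCs, and, chosen after their values were seen, Skiv2l2, Zcchc7, Exosc1 and Exosc2. One gene of the marker lists is not reported here and is in no sum. The members and lists were chosen with earlier results of these data known. Alternatives, apart from correlations with each TRAP library left out, which were added after the data were seen, were 2 other scalings (quantile normalization and equal totals), a pseudocount of 10, no filter, limma-voom on estimated fragments, submission, controls 144a and 144b averaged, the replicate number as a block, a joint fit of the TRAP groups, a Z-score over the standard error, and each library left out.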

Additional observations from a re-analysis of the deposited data

Results flagged for a closer look

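Among the 8 sets of sorted values (4 genes, 2 genotypes), Hbs1l in controls was the one in which the gap of 1 library to the next exceeded Dixon's 95% critical value for 5 samples. Control 144a was at 3750 while the other controls lay between 4054 and 4144, and the gap took 0.778 of the range of the group on the log2 scale. With that critical value, chance picks out about 1 of 20 groups. Control 144b, which carries the same animal number, was at 4144. Leaving out control 144a changed no call of Hbs1l.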

How the results depend on the processing

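TRAP limits what can be read: 0 to 96 fragments stand behind a member in a library. Leaving out 1 library turned several directions, that of Ttc37 in sorted PCs included. In 443 of 488 alternatives the difference, ΔTE or ratio of Skiv2l, Ttc37, Hbs1l or Wdr61 kept its sign and its side of the threshold, 43 changed sign, none of these past a threshold in either fit, and 2 passed the thresholds only with a library left out. For Hbs1l between genotypes under rapamycin, both controls left were then listed at 0. Part of the 443 was fixed in advance. No filter, the replicate block and the joint fit return the same differences and can change only p. The submission term returns the difference of MS3005 alone, and the test of TRAP ratios cannot go below 0.1. The count is therefore no measure of robustness. The smallest adjusted p over 428 limma alternatives was 0.125. The causes of these changes were not tested.

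Quantile normalization turned Skiv2l under rapamycin in mutants to -0.0041, the Hbs1l interaction to -0.28 and the ΔTE of Skiv2l and Ttc37 to -0.049 and -0.057. Equal totals gave -0.76 for Skiv2l and -0.64 for Ttc37 under rapamycin in mutants, where this scaling moved the median of all loci by -0.76. Limma-voom gave -0.12 for Skiv2l in that comparison and 0.21 for Ttc37 between genotypes under rapamycin. A pseudocount of 10 gave a Skiv2l ΔTE of -0.020. With controls 144a and 144b averaged, Ttc37 in sorted PCs was -0.068. Submission MS3005 alone gave a Ttc37 ΔTE of -0.11, and genotype differences in the log2 ratio of -0.19 for Skiv2l to Ttc37 and -0.23 for Skiv2l to Hbs1l. Scalings also moved the median of all loci by 0.40 (TRAP genotypes, equal totals), 0.25 (rapamycin in controls, quantile), -0.39 (genotypes under rapamycin, equal totals) and -0.78 (interaction, equal totals).

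With each library left out, sorted differences ran from -0.10 to 0.22 for Ttc37 and from -0.036 to 0.084 for Hbs1l, and Ttc37 in TRAP from -0.074 to 0.36. Rapamycin in mutants ran from -0.28 to 0.26 for Skiv2l, -0.31 to 0.63 for Ttc37 and -1.56 to -0.25 for Hbs1l. Genotypes under rapamycin ran from -0.92 to 0.25 for Ttc37 and 1.93 to 4.28 for Hbs1l, and the Ttc37 interaction from -0.999 to 0.17. The 4.28 came with both controls left listed at 0. ΔTE ran from -0.019 to 0.17 for Skiv2l and -0.14 to 0.34 for Ttc37. The genotype difference (mutant minus control) in the log2 ratio of Ttc37 to Hbs1l in sorted PCs ran from -0.10 to 0.19, and that of Skiv2l to Ttc37 in TRAP from -0.0061 to 0.47. Sorted differences of Skiv2l ran from 0.16 to 0.29 and of Wdr61 from 0.085 to 0.22.

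No pairing of TRAP libraries by replicate number was seen: deviations from the group means of same-numbered libraries correlated between -0.07 and 0.07. Libraries of different number were not read beside them, and counting noise at few fragments also lowers such r. The check thus cannot exclude pairing. With the replicate block the Hbs1l difference between genotypes in TRAP stayed 1.40 (adjusted p 0.714) and no call of the 4 genes changed, while loci past the thresholds went from 169 to 100 for rapamycin in mutants and from 107 to 64 between genotypes under rapamycin.

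The number of loci past the thresholds moved by more than 1.5 times under several alternatives, from 242 to between 33 (submission as a term) and 703 (no filter) in sorted PCs, from 189 to between 52 and 490 in TRAP, from 91 to 29 and 489 for rapamycin in controls, from 169 to 72 and 440 in mutants, from 107 to 36 and 514 between genotypes under rapamycin, and from 175 to 28 and 529 for the interaction. Loci with a Z-score above 4 went from 851 to between 123 (standard error) and 1745 (no filter).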
